A study of Sus scrofa with 6 samples.

Results

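LARP7, the La-related protein that binds the 7SK RNA, was examined beside the proteins it works with, in brain messenger RNA of domesticated and wild pigs. The set of 7 genes consists of LARP7, MEPCE, HEXIM1, HEXIM2, CDK9, CCNT1 and CCNT2, taken by symbol. A row was found for 6 of the 7, among 18225 genes in the deposited table, and CCNT1 was not analysed here. LARP7 was chosen by its measured values, which were higher in wild boar in these same libraries, so its difference between the breeds is given as a description with no test. Its partners were listed for what their proteins do.

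The libraries came from the brains of 3 Rongchang pigs, a domesticated Chinese breed, and 3 wild boars, 1 library per animal, all aged 210 days. No treatment or genotype is given for either group. The labels name no brain region, and they number the animals 1 to 3 in each breed without saying what a number stands for. Levels are taken to be FPKM (fragment counts divided by transcript length and by the library's mapped fragments). FPKM correct for transcript length, so genes can be compared with each other as far as their annotated transcripts are complete, which was not tested.

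The 7SK RNA is a small nuclear RNA that holds much of a cell's P-TEFb in an inactive form. P-TEFb is the kinase CDK9 with a T-type cyclin, CCNT1 or CCNT2, and it releases paused RNA polymerase II into productive elongation by phosphorylating the polymerase and the factors that hold it. MEPCE caps the end of the 7SK RNA, LARP7 binds its tail and keeps it stable, and HEXIM1 or HEXIM2, bound to the RNA, inhibits the kinase. In neurons, release of paused polymerase is part of how activity-dependent genes are switched on within minutes. LARP7 also takes part in the methylation of U6, an RNA of the spliceosome, and loss of LARP7 in people causes Alazami syndrome, with short stature and intellectual disability.

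Depth per library is unknown, since the values carry no read counts. FPKM summed to 568921 to 687359 per library, and 16510 to 17090 genes had a value above 0. Of 26 marker genes, 17 had a row, and those of neurons and glia were abundant: SNAP25, of synaptic vesicle fusion, ranged from 786 to 1156 FPKM and the astrocyte filament gene GFAP from 441 to 525. For 0 of 9 groups of markers did the summed level separate the breeds, and 0 of the 17 markers were at 0 throughout. Markers of blood and other tissues differed between animals: the choroid plexus gene TTR reached 34.2 FPKM in wild boar 3, against 0.120 to 3.01 in the other 5 libraries. The muscle actin gene ACTA1 stood at 45.7 and 47.3 FPKM in the libraries numbered 2, which also stood apart on the first principal component, and at 4.23 to 16.9 in the other 4. The red blood cell gene HBB stood at 66.9 and 57.7 FPKM in the libraries numbered 2 and at 137 to 273 in the other 4.

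LARP7 (ENSSSCG00000009119) stood at 5.12, 5.07 and 4.73 FPKM in Rongchang 1, 2 and 3. It stood at 7.76, 9.73 and 8.70 FPKM in wild boar 1, 2 and 3. The lowest wild boar value lay above the highest Rongchang value, and the 3 Rongchang libraries lay close together. Breed means were 4.98 ± 0.213 FPKM in Rongchang and 8.73 ± 0.986 in wild boar (SD, n = 3 each), a ratio of 1.75. In log2(FPKM + 1), a scale that shrinks the differences of genes with low levels, the difference (wild boar minus Rongchang) was 0.70 with a standard error of 0.14. That standard error takes no account of how LARP7 was picked and serves as no test. Of 13152 genes tested, those with at least 1 FPKM in at least 3 libraries, 49 had a larger difference. Wild boar values lay above all Rongchang values in 147 genes (1.12%), and below them in 1501 (11.4%).

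The table as a whole leaned to lower values in wild boar: the difference of the median gene was −0.13 log2 units and 77.9% of genes had a negative one. LARP7 stood 0.83 log2 units above the median gene. With each library scaled to the same median, the LARP7 difference was 0.85, and without both libraries numbered 2 it was 0.64. Paired by the animals' numbers, LARP7 was higher in wild boar by 0.52, 0.82 and 0.76 log2 units for numbers 1, 2 and 3. Since all its wild boar values lay above all Rongchang values, any pairing gives this direction, which adds nothing to the lack of overlap. Of all genes tested, 5.10% were higher in wild boar at all 3 numbers. In tissue libraries such as these, more cells of a type and more RNA per cell cannot be told apart.

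**Figure D1:**
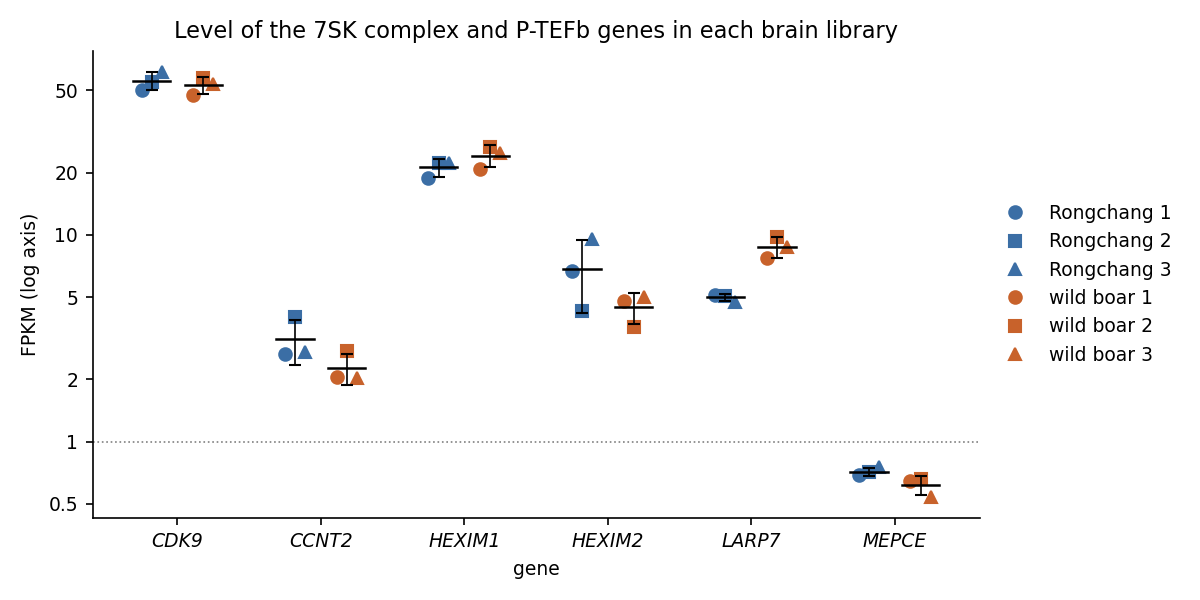
FPKM on a log axis of the 6 genes with a row, 1 point per library (blue Rongchang, orange wild boar; circle, square and triangle for animals 1, 2 and 3), with breed means and SD (n = 3). LARP7 separates the breeds, at 4.73 to 5.12 FPKM in Rongchang and 7.76 to 9.73 in wild boar. The dotted line marks 1 FPKM, under which MEPCE lay in every library.

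Of the 6 partners, 4 passed the filter on low values and were tested: HEXIM1, HEXIM2, CDK9 and CCNT2. In limma across all genes, 0 of the 4 passed at an adjusted p under 0.05 and 0 had an unadjusted p under 0.05, where 0.00760% and 6.0% of all genes did. The signs of their differences were mixed. With the animal number as a block, 0 of 4 passed (0.00760% of all genes) and 2 had an unadjusted p under 0.05 (17.4% of all genes), HEXIM2 (limma adjusted p = 0.243) and CCNT2 (limma adjusted p = 0.270). Over the alternatives tried, the limma adjusted p of the partners ran from 0.243 to 1.

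CDK9 (ENSSSCG00000005621), the kinase, had the highest level of the set. Rongchang 1, 2 and 3 had 50.3, 55.1 and 61.3 FPKM, and wild boar 1, 2 and 3 had 47.4, 57.2 and 53.6. The breeds overlapped broadly, with means of 55.6 ± 5.53 and 52.8 ± 4.97 (SD, n = 3 each). The log2 difference was −0.07 with a standard error of 0.16 (limma adjusted p = 0.929), and 0.10 after median scaling. Its coefficient of variation over the 6 libraries was 9.14%, the lowest of the set, against 31.4% for LARP7.

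CCNT2 (ENSSSCG00000015697), a cyclin partner of CDK9, had Rongchang values of 2.65, 4.01 and 2.71 FPKM and wild boar values of 2.05, 2.73 and 2.02. Rongchang 2 was the high library, and wild boar 2 lay just above Rongchang 1 and 3, so the breeds overlapped. The log2 difference was −0.33 with a standard error of 0.18 (limma adjusted p = 0.794), −0.18 without Rongchang 2 and −0.20 after median scaling. Within each number CCNT2 was lower in wild boar, with log2 differences of −0.26, −0.43 and −0.29, as were 38.5% of all genes tested.

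HEXIM1 (ENSSSCG00000017336), the more abundant HEXIM messenger, had Rongchang values of 18.8, 22.4 and 22.4 FPKM and wild boar values of 20.9, 26.6 and 24.9. Wild boar 1 lay below Rongchang 2 and 3, and the other 2 wild boars lay above all Rongchang pigs. Means were 21.2 ± 2.04 and 24.1 ± 2.93 (SD, n = 3 each). The log2 difference was 0.18 with a standard error of 0.16 (limma adjusted p = 0.857), or 0.31 relative to the median gene. It was 0.10 without Rongchang 1 and 0.27 without wild boar 1. After median scaling it was 0.34 (limma unadjusted p = 0.041, limma adjusted p = 0.9999). Median scaling with the block also gave 0.34 (limma unadjusted p = 0.0069, limma adjusted p = 0.432). For these scaled fits the share of all genes with a low unadjusted p was not counted. Within numbers 1, 2 and 3 HEXIM1 was higher in wild boar by 0.14, 0.24 and 0.15 log2 units, the direction that 5.10% of all genes showed at all 3 numbers. With the block and no scaling its limma adjusted p was 0.357.

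HEXIM2 (ENSSSCG00000017335), which can take the place of HEXIM1 in the complex, had the largest spread of the set, with a coefficient of variation of 38.4% over the 6 libraries. Its libraries gave Rongchang values of 6.67, 4.28 and 9.54 FPKM and wild boar values of 4.77, 3.60 and 4.99. Rongchang 2 fell among the wild boar values, and Rongchang 3 was the highest library. Means were 6.83 ± 2.63 and 4.46 ± 0.752 FPKM (SD, n = 3 each). The log2 difference was −0.47 with a standard error of 0.25 (limma adjusted p = 0.792), with −0.23 when Rongchang 3 was left out and −0.73 when Rongchang 2 was. Within each number it was lower in wild boar, with log2 differences of −0.41, −0.20 and −0.81, as were 38.5% of all genes tested. After median scaling the HEXIM2 difference between the breeds was −0.33.

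MEPCE (ENSSSCG00000023680), the capping enzyme of the 7SK RNA, lay under 1 FPKM in every library and did not pass the filter. Its libraries gave Rongchang values of 0.688, 0.708 and 0.751 FPKM and wild boar values of 0.645, 0.657 and 0.541. All wild boar values lay below all Rongchang values, as in 11.4% of the genes tested. Without the filter the log2 difference was −0.09 with a standard error of 0.09 (limma adjusted p = 0.860). The median gene of that unfiltered comparison was at −0.10.

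**Figure D2:**
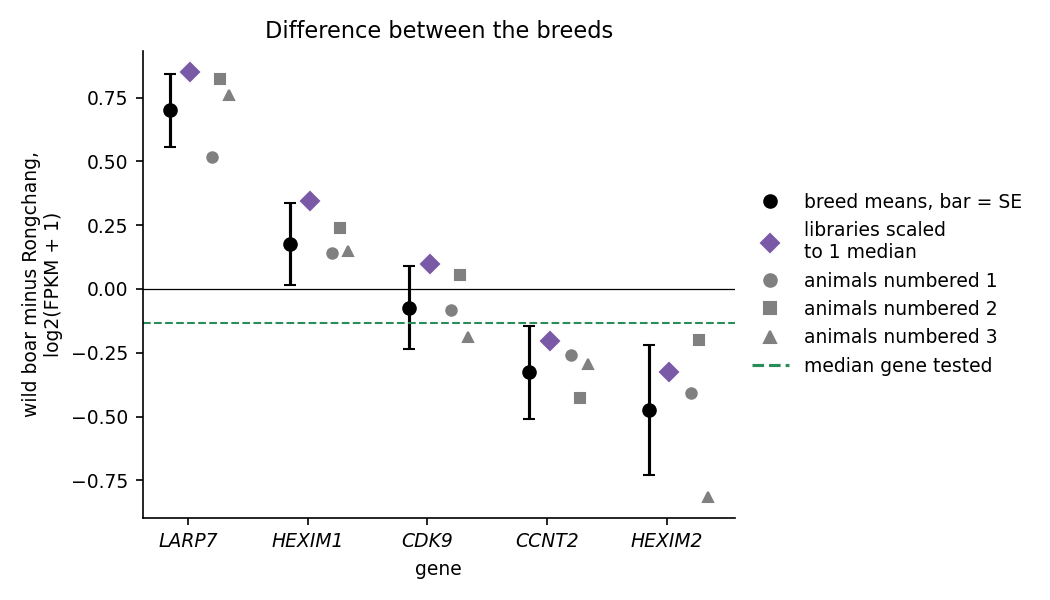
Difference between the breeds in log2(FPKM + 1) for LARP7 and its 4 tested partners. Black points are breed means with standard errors, purple diamonds the same after scaling each library to 1 median, grey symbols the differences between animals of the same number, and the dashed green line the median gene (−0.13). LARP7 lies at 0.70, and the partners lie between −0.47 and 0.18. The standard error of LARP7 takes no account of how the gene was picked.

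By mean FPKM over the 6 libraries the order was CDK9 (54.2), HEXIM1 (22.6), LARP7 (6.85), HEXIM2 (5.64), CCNT2 (2.69) and MEPCE (0.665). The ranges over the 6 libraries did not overlap between CDK9 and HEXIM1, HEXIM1 and LARP7, or CCNT2 and MEPCE. Those of LARP7 and HEXIM2 overlapped. LARP7 was the higher of the pair in 4 of 6 libraries, which are Rongchang 2 and the 3 wild boars. The ranges of HEXIM2 and CCNT2 met, but HEXIM2 was higher within each of the 6 libraries. Among all listed genes CDK9 stood at the 94.2 percentile of mean FPKM, LARP7 at 62.8 and CCNT2 at 42.8.

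Ratios within a library do not depend on how libraries were scaled to each other. The ratio of LARP7 to HEXIM1 was 0.272, 0.227 and 0.212 in Rongchang 1, 2 and 3. In wild boar 1, 2 and 3 it was 0.372, 0.366 and 0.350. The wild boar ratios lay close together and above all Rongchang ratios, though LARP7 FPKM itself varied more among the wild boars (coefficient of variation 11.3%) than among the Rongchang pigs (4.28%). The ratio of LARP7 to CDK9 was 0.102, 0.0921 and 0.0771 in Rongchang, and 0.164, 0.170 and 0.162 in wild boar. Both ratios carry the LARP7 values by which the gene was picked and were not tested.

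Of the ratios that leave LARP7 out, 2 were tested, both of the HEXIM messengers. CCNT2 per CDK9 was not tested, and overlapped between the breeds, at 0.0565 ± 0.0147 in Rongchang and 0.0428 ± 0.00496 in wild boar. HEXIM1 and HEXIM2 together, per CDK9, came to 0.507, 0.484 and 0.520 in Rongchang 1, 2 and 3, and to 0.541, 0.527 and 0.557 in wild boar. All wild boar ratios lay above all Rongchang ratios (0.504 ± 0.0185 against 0.542 ± 0.0147, SD, n = 3 each; exact permutation test, two-sided, p = 0.1, adjusted p = 0.2 over 2 ratios). With 3 animals per breed that test cannot give a p below 0.1. The summed HEXIM level overlapped between the breeds, at 28.0 ± 3.42 and 28.6 ± 2.53 FPKM.

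HEXIM2 made up 26.2%, 16.1% and 29.9% of that sum in Rongchang 1, 2 and 3. In wild boar it made up 18.6%, 11.9% and 16.7%. Rongchang 2 lay within the wild boar range, and the share was lower in wild boar within each number (24.0% ± 7.16 against 15.8% ± 3.46; exact permutation test, two-sided, p = 0.3, adjusted p = 0.3). The difference of −8.28 percentage points was −5.36 without Rongchang 3 and −12.3 without Rongchang 2. In both breeds the library numbered 2 had the lowest HEXIM2 share. These libraries also stood apart in ACTA1 and HBB, and the part of this in the share was not tested. A share of CCNT2 among both cyclins could not be computed without CCNT1.

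**Figure D3:**
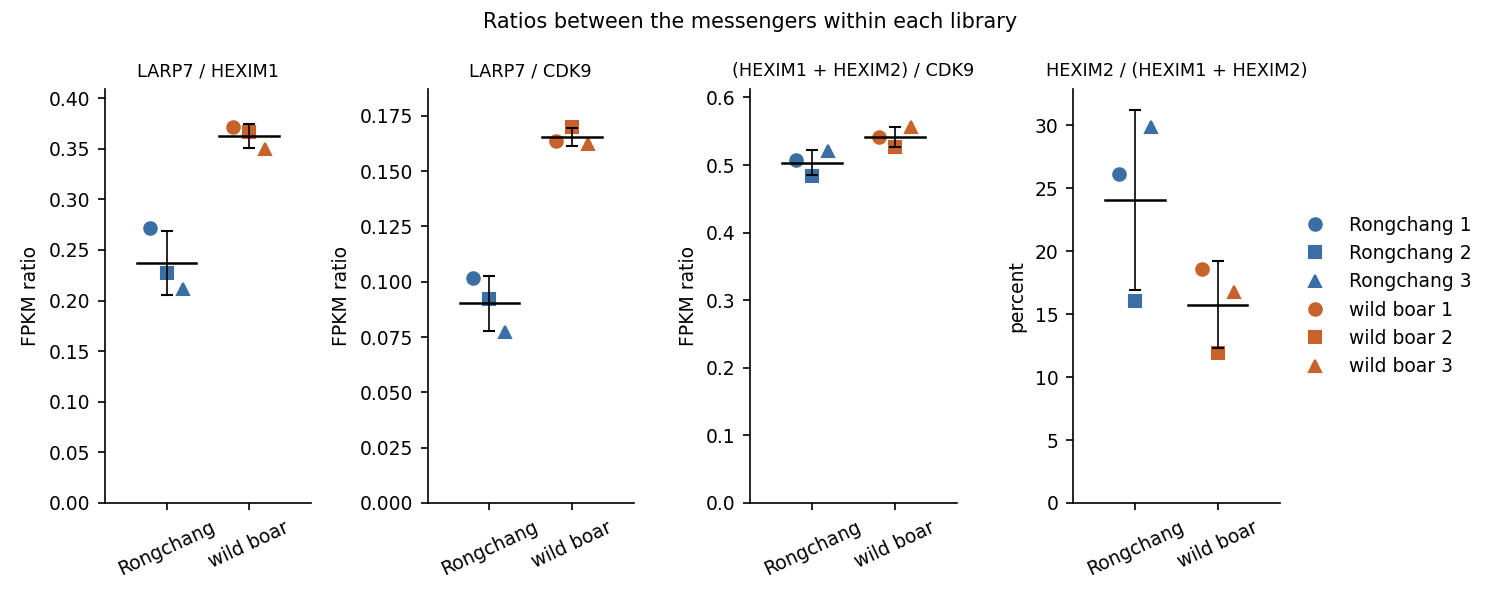
Ratios between FPKM values within each library, in blue for Rongchang and orange for wild boar, with breed means and SD (n = 3); all axes start at 0. LARP7 per HEXIM1 separates the breeds (0.212 to 0.272 against 0.350 to 0.372), and LARP7 per CDK9 does too. The HEXIM sum per CDK9 is slightly higher in wild boar, and the HEXIM2 share overlaps.

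Around these genes, 106 genes in 9 lists of the elongation pathway and of U6 were examined, of which 75 were tested. In limma 0 of the 75 passed in either direction, where 0.00760% of all genes did, and 1 had an unadjusted p under 0.05, where 6.0% of all genes had. Of the 75, 7 showed no overlap between the breeds, all lower in wild boar (9.33%, where 11.4% of all genes were lower without overlap). Their median difference was −0.11 log2 units, 0.02 above the median gene, and 81.3% lay below 0 against 77.9% of all genes. Of the 75, 0 were higher in wild boar without overlap, where 1.12% of all genes were. In what follows, paired means ± SD (n = 3 each) are in FPKM, Rongchang first, and the value in parentheses after them is the log2 difference.

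Genes that free P-TEFb from the 7SK complex or bring it to chromatin had a median difference of −0.06 (12 tested, 0 called in either direction). RBM7, an RNA-binding protein that activates P-TEFb upon DNA damage, stood at 2.39 ± 0.323 and 1.98 ± 0.615 (−0.20, and −0.05 without wild boar 2). HNRNPA1, an RNA-binding protein that takes up 7SK RNA released from P-TEFb, was the most abundant of the list. It stood at 126 ± 8.54 and 112 ± 1.67 (−0.16, and 0.01 after median scaling). All its wild boar values lay below all Rongchang values, as in 11.4% of the genes tested.

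In the super elongation complex, which carries active P-TEFb, 0 of 7 genes passed in either direction and the median was −0.11. EAF1, a partner of the ELL elongation factors, averaged 16.8 ± 1.28 FPKM in the Rongchang pigs and 19.7 ± 2.37 in the wild boars (log2 difference 0.21, limma adjusted p = 0.848). The EAF1 difference was 0.38 after median scaling and 0.13 without wild boar 3. ELL2 stood at 5.05 ± 1.39 and 4.18 ± 0.543 (−0.20). The ELL2 difference was −0.03 without Rongchang 2 and −0.06 after median scaling. Among the pausing factors, on which P-TEFb acts, 0 of 6 passed and the median was −0.09. Of the subunits of the negative elongation factor, NELFCD and NELFB showed no overlap between the breeds, and NELFA and NELFE overlapped. Of all genes tested, 11.4% were lower in wild boar without overlap. NELFCD had Rongchang values of 38.5, 38.1 and 43.9 FPKM and wild boar values of 34.5, 33.9 and 34.4. Its difference was −0.22 (limma adjusted p = 0.833), and NELFB was at 18.3 ± 2.98 and 15.5 ± 0.741 (−0.22). Both differences were −0.05 after median scaling, and that of NELFB was −0.09 without Rongchang 3.

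Factors that travel with polymerase after release had a median of −0.10 (9 tested, 0 called in either direction). CDC73, of the PAF complex, stood at 8.20 ± 2.45 and 6.31 ± 0.830 FPKM (−0.30, limma adjusted p = 0.843). Its difference was −0.10 without Rongchang 2 and −0.15 after median scaling. The FACT subunits SUPT16H and SSRP1 had differences of −0.18 and −0.09, which were −0.01 and 0.08 after median scaling. Among other transcription kinases and cyclins, with a median of −0.14 and 0 of 10 passing, CCNH, the cyclin of the CDK7 kinase, had Rongchang values of 16.2, 18.6 and 17.8 FPKM and wild boar values of 13.8, 15.8 and 13.3. The breeds did not overlap for CCNH (−0.28, limma adjusted p = 0.789), and its difference was −0.11 after median scaling. Of all genes tested, 11.4% were likewise lower in wild boar without overlap. CDK7 itself stood at 3.84 ± 1.14 and 3.02 ± 0.193 (−0.24, but −0.06 without Rongchang 2 and −0.11 after median scaling), and CCNL2, the most abundant of the list, at 46.6 ± 8.58 and 41.6 ± 1.80 (−0.14, and 0.03 after median scaling).

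RNA polymerase II subunits had a median of −0.13, that of the median gene, and 0 of 8 passed. POLR2G had Rongchang values of 27.8, 19.6 and 43.3 FPKM and wild boar values of 21.2, 15.1 and 19.4. Rongchang 3 was the highest library, and the breeds overlapped (−0.62, limma adjusted p = 0.789). Without Rongchang 3 the POLR2G difference was −0.33, and after median scaling it was −0.45. POLR2H had a difference of −0.16 and POLR2F, the most abundant, −0.14, and both lay above 0 after median scaling, at 0.0035 and 0.03.

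The family to which LARP7 belongs gave 4 tested genes, of which 0 passed, with a median of −0.03. SSB, the La protein itself, which binds the tails of new small RNAs, had Rongchang values of 25.7, 27.4 and 25.3 FPKM and wild boar values of 27.1, 28.9 and 29.7. Its difference of 0.12 (limma adjusted p = 0.874) came with overlap, since wild boar 1 lay below Rongchang 2. After median scaling the SSB difference was 0.29. LARP1, which represses messengers of the translation machinery, stood at 23.6 ± 6.37 and 21.0 ± 6.60 (−0.17, and 0.02 without Rongchang 2). Both had higher levels than LARP7 in every library.

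In the list for U6 maturation and methylation the median was −0.07 and 0 of 12 passed. USB1, which trims the tail of U6, had Rongchang values of 3.77, 3.69 and 4.62 FPKM and wild boar values of 3.44, 2.73 and 3.12. The breeds did not overlap, and 11.4% of all genes tested were likewise lower in wild boar without overlap. The USB1 difference was −0.29 (limma adjusted p = 0.789), and −0.16 after median scaling. TUT1, which adds uridines to that tail, stood at 4.50 ± 0.466 and 3.85 ± 0.521 (−0.18, but −0.05 after median scaling), and SNU13, which binds U4 and box C/D RNAs, at 243 ± 58.5 and 232 ± 39.3 (−0.05, and 0.12 after median scaling).

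Rapidly induced genes, whose polymerase waits in a paused state, had a median of −0.18 (7 tested, 0 called in either direction). JUNB, a subunit of the AP-1 transcription factor, had Rongchang values of 14.9, 14.5 and 17.6 FPKM and wild boar values of 9.75, 10.5 and 9.38. The breeds did not overlap, as in the 11.4% of all genes tested that were lower in wild boar without overlap. The JUNB difference was −0.61, with the 1 unadjusted p under 0.05 among the 75 genes (limma adjusted p = 0.724). After median scaling the JUNB difference was −0.45. FOS stood at 8.68 ± 1.90 and 6.69 ± 1.30 (−0.33, but −0.17 without Rongchang 1 and −0.18 without wild boar 3 or after median scaling). The phosphatase gene DUSP1 stood at 22.1 ± 3.37 and 23.4 ± 4.59 (0.08). Its difference was 0.24 after median scaling or without wild boar 2, −0.05 without Rongchang 2 and −0.02 without wild boar 3.

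**Figure D4:**
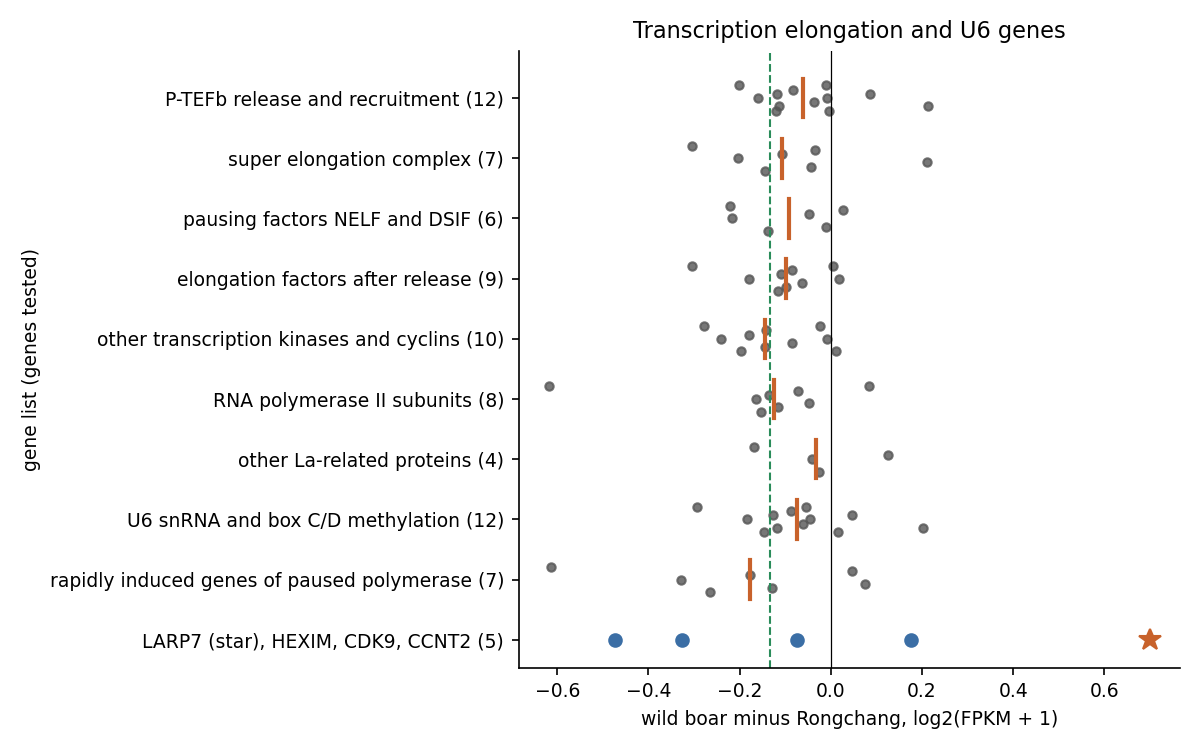
Difference between the breeds in log2(FPKM + 1) of each tested gene, by list; grey points are genes, orange bars list medians, the dashed green line the median gene (−0.13). The bottom line holds LARP7 (star, 0.70) and its 4 tested partners (blue). The list medians lie between −0.18 and −0.03, and EAF1, of the super elongation complex, lies at 0.21.

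The genes with the profile most like that of LARP7 were found by Pearson correlation of log2(FPKM + 1) over the 6 libraries, among 8537 other genes with a symbol. These coefficients describe 6 libraries that share the breed difference for which LARP7 was picked. BDNF, a neurotrophin, came first (r = 0.99), with 3.82, 4.18 and 3.83 FPKM for Rongchang 1, 2 and 3 against 5.37, 6.83 and 6.13 for wild boar 1, 2 and 3. As for LARP7, wild boar 2 was the highest and wild boar 1 the lowest of the wild boars. EIF3J, of translation initiation (r = 0.96), stood at 41.0 ± 0.919 and 47.6 ± 1.46. The Src-family kinase gene LYN (r = 0.95), the signalling ligand WNT7B (r = 0.95) and RNF39 (r = 0.94) had differences of 0.34, 0.25 and 0.50.

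The 3 genes least like LARP7 were the adhesion molecule gene NECTIN1 (r = −0.99), the cholesterol synthesis enzyme gene DHCR7 (r = −0.99) and the NF-kappaB pathway kinase gene CHUK (r = −0.99). NECTIN1 had Rongchang values of 2.23, 2.63 and 2.53 FPKM and wild boar values of 0.420, 0 and 0. Its coefficient thus rests in part on values at the floor. CHUK had Rongchang values of 12.1, 11.9 and 12.5 FPKM and wild boar values of 10.1, 8.20 and 8.84, with wild boar 2 the lowest. Among the partners r with LARP7 was 0.67 for HEXIM1, −0.20 for CDK9, −0.56 for CCNT2 and −0.69 for HEXIM2, where the median over all genes was −0.31.

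**Figure D5:**
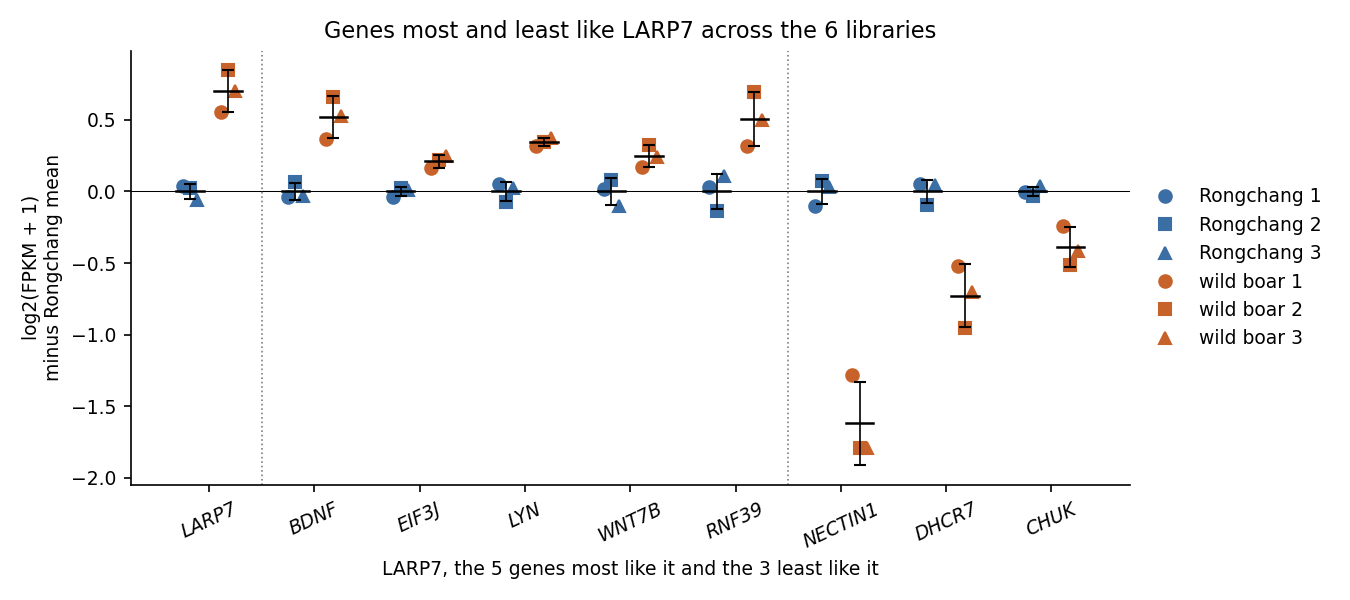
LARP7, the 5 genes most like it and the 3 least like it, as log2(FPKM + 1) minus the Rongchang mean of the gene, 1 point per library, with breed means and SD (n = 3). Wild boar points lie above the Rongchang points for LARP7 and the 5 genes (0.70 for LARP7, 0.52 for BDNF) and below them for the other 3.

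Beside LARP7 in the RefSeq gene order of assembly Sscrofa11.1 lie ZGRF1 on one side and, past 4 entries in start order with no row used here, ANK2 on the other. ZGRF1, a DNA repair helicase gene, was at most 0.0996 FPKM in any library and did not pass the filter, with 0.0606 ± 0.0355 in Rongchang and 0.0592 ± 0.0350 in wild boar. ANK2, a scaffold gene of axons, had Rongchang values of 26.7, 40.3 and 21.4 FPKM and wild boar values of 22.4, 32.9 and 19.2. The breeds overlapped, with the library numbered 2 the highest in both, and the difference was −0.23 (limma adjusted p = 0.880), or 0.02 without Rongchang 2. ANK2 did not separate the breeds as LARP7 did, and ZGRF1 was too low for such a comparison.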

How the data were processed

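Poly(A) RNA was sequenced as strand-marked paired-end libraries on an Illumina HiSeq instrument, per the labels' protocols. TopHat2 2.0.11, Cufflinks 2.2.1 and Cuffdiff are named, per the submitters' processing notes, without role; the genome build, the annotation and the strand setting: not given in the sources used here. The deposited table holds FPKM, judged from those tools and the values; its header names no unit. Ratios of low values (below 0.15 FPKM) between libraries showed no common step (23.7% or fewer within 0.04 log2 units of each other for any pair), and depth was not recovered.

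Symbols from a table of Ensembl identifiers matched 10937 of 18225 genes (60.0%); the highest mean row was used per symbol. RefSeq (Sscrofa11.1) served only for gene neighbours. Wild boar was compared with Rongchang by limma 3.58.1 (R 4.3.3) on log2(FPKM + 1) with a mean-variance trend, keeping genes that reached 1 FPKM in 3 or more of the 6 libraries, two-sided, Benjamini-Hochberg adjusted over all genes tested, threshold 0.05. The procedure was tested on simulated data. HEXIM ratios used exact permutation tests over libraries (scipy 1.17.1); another planned ratio needed CCNT1. Named were all members, per list the 2 genes of smallest p, the most abundant gene and any that passed, the 5 genes most and 3 least correlated with LARP7, and its nearest neighbours with a row; 1 gene so named is not reported here. Members and lists were chosen with earlier results of these data known. P-values measure only the spread between these libraries.

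Pairing was checked by correlating, across genes, how far libraries of the same number lay from the mean of their breed: 0.28, 0.59 and 0.37 for numbers 1, 2 and 3, each over 0.1. The deviations cancel out within a breed, so these coefficients are not independent. A likeness of the libraries numbered 2 alone can raise the coefficients among the others, so passing the bound cannot show pairing. The numbers were treated as pairs in the fit with the block, which is uncertain. Rongchang 1 with wild boar 3 also exceeded 0.1 (0.12).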

Additional observations from a re-analysis of the deposited data

How the results depend on the processing

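The LARP7 difference ran from 0.63 to 0.85 over the 15 alternatives. All wild boar values lay above all Rongchang values, so leaving out libraries or changing the pseudocount could not turn its sign. The filters and the block alone could not change its size. The LARP7 difference was 0.85 after median scaling, with or without the replicate block, and 0.84 after quantile normalization. These scalings moved the median gene from −0.13 to 0.02 and 0.0068. Leaving out 1 library gave LARP7 differences of 0.63 to 0.77. Counts of partners and of list genes called were 0 throughout, and the block changed no call. The count over all genes, 1, was 3 with a pseudocount of 0.1, and 0 with a mean of at least 5 FPKM or without both libraries numbered 2; it ran from 0 (without Rongchang 3) to 4 (without wild boar 1) when 1 library was left out. Paired by number, the HEXIM sum per CDK9 differed by 0.0382 and the HEXIM2 share by −8.28 percentage points (exact sign permutation, p = 0.25 for both, the smallest that 3 pairs allow). After median scaling, with or without the block, signs turned to 0.098 for CDK9, 0.014 for HNRNPA1, 0.083 for SSRP1, 0.026 for CCNL2, 0.034 for POLR2F, 0.0035 for POLR2H and 0.12 for SNU13. Quantile normalization gave 0.065 for CDK9, 0.045 for SSRP1, 0.013 for CCNL2 and 0.054 for SNU13. With 1 library left out, differences that turned sign ranged from −0.14 to 0.00036 for CDK9, −0.36 to 0.14 for POLR2F, −0.37 to 0.081 for POLR2H, −0.40 to 0.020 for LARP1, −0.22 to 0.12 for SNU13, −0.052 to 0.24 for DUSP1 and −0.44 to 0.018 for ANK2. The cause of these turns was not tested, and none of these genes passed under any alternative. Depth is unknown, so the precision of low genes such as MEPCE cannot be given. MEPCE gave a test only without the filter, and CCNT2 none with a mean of at least 5 FPKM.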
